A study of Mus musculus with 4 samples.

Results

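Glucose uptake and the central steps of glycolysis were followed in mouse macrophages through 10 genes: the glucose carrier Slc2a1 and the glycolytic enzyme genes Hk1, Hk2, Gpi1, Pfkl, Pfkp, Aldoa, Pgk1, Pkm and Ldha. The set was drawn up with earlier results of these data known, and its members were then found as the entries of the count tables whose Ensembl identifier, without its version, carries one of these symbols in the GENCODE M21 annotation. Of 52550 gene entries, 11 matched, because the symbol Aldoa stands on 2 of them. The entry that lies within RefSeq's Aldoa gene is the one described. The other, ENSMUSG00000114515.1, held 2 reads in unstimulated wild-type macrophages and none in the other 3 libraries.

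The cells were macrophages grown from bone marrow of C57BL/6 mice aged 8 to 10 weeks, with miR-7 deficiency or wild type, and poly(A) RNA was sequenced. Cultures received 100 ng/mL of lipopolysaccharide (LPS, a bacterial cell wall component that activates macrophages) for 12 h or were left unstimulated. The 4 groups were miR-7 deficient with LPS, wild type with LPS, miR-7 deficient unstimulated and wild type unstimulated, with 1 library each. The sources used here do not say how or in which cells the deficiency was made, or how many mice gave marrow.

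Glycolysis splits glucose into pyruvate in the cytosol. Carriers bring glucose in, hexokinases trap it as glucose 6-phosphate, an isomerase and phosphofructokinase prepare the sugar for cleavage by aldolase, and the later enzymes yield ATP and pyruvate, which lactate dehydrogenase can turn into lactate. Macrophages activated by LPS are known for a raised use of glucose and release of lactate, and many genes of the pathway are known targets of the hypoxia-inducible factor HIF-1.

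The libraries held 42074624 reads in genes for deficient macrophages with LPS, 39178290 for wild type with LPS, 33937823 for deficient unstimulated and 40745230 for wild type unstimulated macrophages, and the 10 genes drew between 2502 and 90589 reads each in every library. The summed level of 8 macrophage markers was 13416 CPM (counts scaled to a common library size) or more in each library. The lists for neutrophils, T and NK, B, erythroid, mast and stromal cells summed to at most 11.2 CPM each, and the dendritic cell list reached 326 CPM in deficient and 159 CPM in wild-type macrophages with LPS. Nearly all of the dendritic sum with LPS was Ccr7, at 317 CPM in deficient and 148 CPM in wild type. Xcr1 also rose with LPS, from 0 reads unstimulated to 2.11 CPM in deficient and 2.54 CPM in wild type. Zbtb46, at 1.22 to 5.43 CPM, did not pass. Clec9a fell with LPS, Siglech had 8 reads in deficient with LPS only, and Flt3 had no reads in any library. Genotype and sex cannot be told apart: Xist had 25701 and 28015 reads in the deficient libraries against 16 and 24 in the wild-type ones, and the Y-linked Ddx3y had 12 and 9 in the deficient libraries against 1537 and 2013 in the wild-type ones. For 90 genes chosen for strong induction by LPS in deficient macrophages, the unstimulated wild-type level was a median of 1.33% of the wild-type level with LPS. That choice itself keeps these genes low in unstimulated deficient macrophages, so the value cannot compare the genotypes. Counts of poly(A) RNA do not measure mature miR-7, so the deficiency itself was not checked.

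The microRNA that distinguishes the genotypes exists in 2 mature forms that share 1 seed, and the seed is shown because it fixes which messages could pair with it. Both are from RefSeq (GRCm38.p6), written 5′ to 3′ with the seed, bases 2 to 8, in capitals.
miR-7a-5p: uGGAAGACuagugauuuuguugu
miR-7b-5p: uGGAAGACuugugauuuuguuguu
Matches counted were to the whole seed or to its first 6 bases followed by an A, in a gene's longest annotated 3′ UTR. Of the 10 genes, 2 had such a match, against 26.4% of 11289 tested genes with a 3′ UTR. Both sites are given below on the strand of the gene (GRCm38), with the paired bases in capitals. The one in Gpi1 lies at chr7:34201650-34201675 on the minus strand and pairs with 6 seed bases, the one in Ldha at chr7:46855142-46855156 on the plus strand and pairs with all of them.
Gpi1 site: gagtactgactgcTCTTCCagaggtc
Ldha site: aGTCTTCCccgtgtc
Slc2a1 held 2 and Pfkl 1 matches to 6 seed bases without the A. With LPS these 4 genes were lower in deficient than in wild-type macrophages, as were all of the 10 genes and 47.8% of tested genes. Unstimulated, Slc2a1 was higher in deficient macrophages (log2 ratio 0.18, 0.12 to 0.23), Gpi1 was at 0.02 (-0.01 to 0.06), and Pfkl (-0.19) and Ldha (-0.29) were lower. A match is a run of letters, not a shown site of binding.

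Values are given as CPM after TMM scaling, and a log2 fold change of 1 stands for a doubling. The effects of LPS and of genotype were each tested over 12730 genes with edgeR's quasi-likelihood test in a model with both factors, in which a gene's genotype-dependent part of the LPS response counts as its spread. Log2 ratios between single libraries carry an exact 95% interval that covers counting error only and is no test, since no group has a replicate. In bulk RNA, fewer cells of a kind and less RNA per cell cannot be told apart.

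LPS raised 7 of the 10 genes, Slc2a1, Hk1, Hk2, Pfkl, Pfkp, Pgk1 and Ldha, at a Benjamini-Hochberg adjusted p under 0.05, and none fell, against 18.0% of tested genes called higher and 16.3% called lower. Gpi1, Aldoa and Pkm did not pass. The median fitted LPS log2 fold change was 1.41 over the 10 genes and -0.04 over all tested genes. Wild-type macrophages with LPS had the highest level of the 4 libraries for all 10 genes, as they did for 25.9% of tested genes. In a model with LPS alone, 5 of the 10 were called (Slc2a1, Hk1, Hk2, Pfkl and Pfkp), without Pgk1 (adjusted p = 0.0781) and Ldha (adjusted p = 0.0929). Leaving out a library in that model left 0 called without either unstimulated library, the same 5 without wild type with LPS, and 8 (Gpi1 added to the 7) without deficient with LPS. Without unstimulated wild type the fitted change of Slc2a1 was 2.54 ± 0.96 and that of Hk1 2.52 ± 0.57 (log2, SE), and without unstimulated deficient they were 2.67 ± 0.96 and 1.956 ± 0.55, against 2.26 ± 0.51 and 2.11 ± 0.22 with all libraries and both factors. DESeq2's Wald test called 8, adding Aldoa. Scaling by total counts in place of TMM moved the median LPS log2 ratio of all tested genes by -0.38 in deficient and -0.44 in wild-type macrophages and left 6 called, without Ldha.

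**Figure D1:**
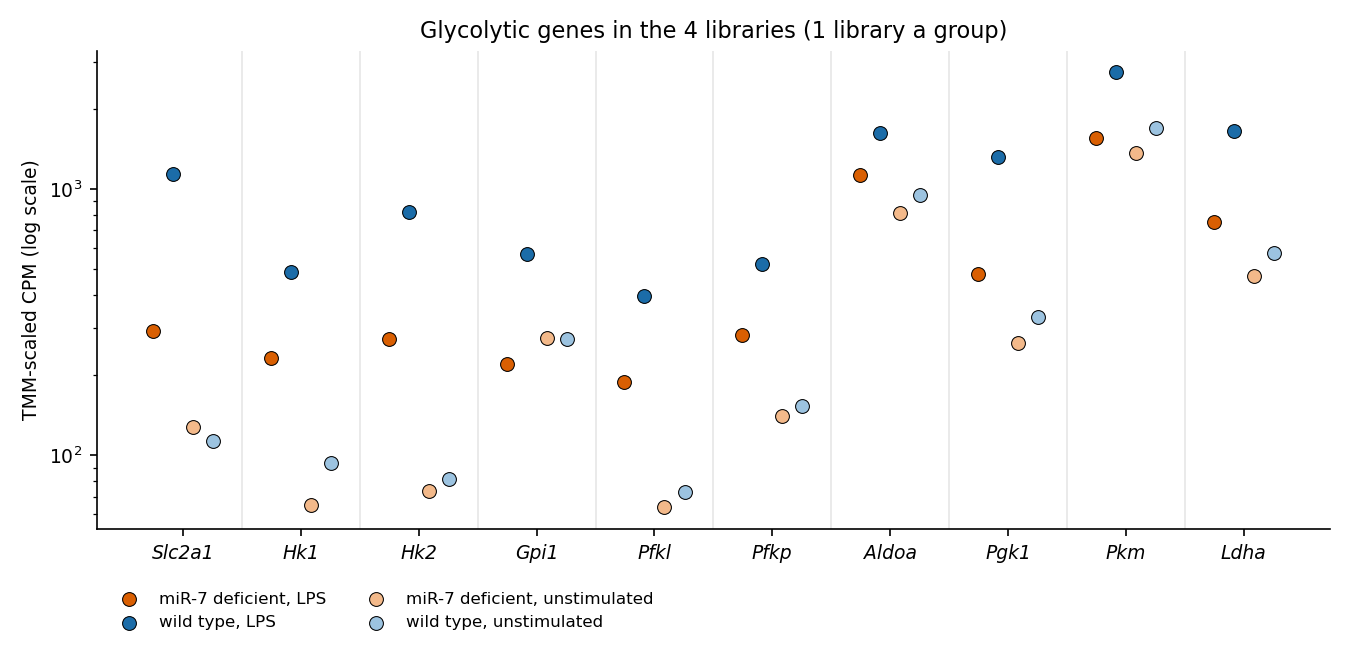
TMM-scaled CPM (log axis) of the 10 genes in the 4 libraries, 1 point a library, with LPS in dark and unstimulated in pale colours, deficient in orange and wild type in blue. Wild type with LPS is the topmost point for every gene; for Gpi1 the deficient library with LPS, at 221 CPM, is the lowest.

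Slc2a1 (ENSMUSG00000028645.11, chr4:119108711-119137983, plus strand; GRCm38 here and below) encodes GLUT1, a carrier that lets glucose into the cell. It stood at 293 CPM in deficient and 1134 CPM in wild-type macrophages with LPS, against 128 CPM in deficient and 114 CPM in wild-type unstimulated macrophages. The unstimulated libraries were close, and the wild-type library with LPS was far above the other 3. Slc2a1 rose with LPS by a fitted log2 fold change of 2.26 ± 0.51 (SE; edgeR, adjusted p = 0.0177). The LPS ratio was 2.28-fold in deficient and 9.99-fold in wild-type macrophages, and the deficient ratio was lower by a log2 difference of -2.13 (95% interval -2.19 to -2.07), the largest difference of the 10 genes.

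Hk1 (ENSMUSG00000037012.18, chr10:62268855-62379908, minus strand) and Hk2 (ENSMUSG00000000628.10, chr6:82725025-82774454, minus strand) encode hexokinases, which phosphorylate glucose in the first step of the pathway. Hk1 was at 231 CPM in deficient and 486 CPM in wild-type macrophages with LPS, against 65.0 CPM in deficient and 93.2 CPM in wild-type unstimulated macrophages. Hk2 reached 272 CPM in deficient and 817 CPM in wild-type macrophages with LPS, against 73.7 and 81.3 CPM in deficient and wild-type unstimulated macrophages. For both genes the libraries with LPS lay above the unstimulated ones, an order not counted over all tested genes. Hk1 rose with LPS by 2.11 ± 0.22 (log2, SE; adjusted p = 0.00109) and Hk2 by 2.61 ± 0.37 (adjusted p = 0.00326), the largest fitted LPS change of the 10 genes. Hk2 gained 3.69-fold in deficient and 10.1-fold in wild-type macrophages; Hk1, at 3.56-fold in deficient and 5.21-fold in wild-type macrophages, showed the smaller difference.

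The promoters of Hk2 and of Gpi1 are shown because these genes had the largest and the smallest fitted LPS change, and the first Ldha promoter because it holds the most matches, a choice made after its matches were seen. Each runs from 250 bases before to 50 bases after an annotated start (RefSeq, GRCm38.p6), 5′ to 3′ on the strand of the gene. Capitals mark ACGTG and GCGTG, the core letters of the element that HIF binds, read on either strand, so that CACGT and CACGC are their reverse complements and CACGTG holds ACGTG on both strands.
Hk2, chr6:82774405-82774704, minus strand: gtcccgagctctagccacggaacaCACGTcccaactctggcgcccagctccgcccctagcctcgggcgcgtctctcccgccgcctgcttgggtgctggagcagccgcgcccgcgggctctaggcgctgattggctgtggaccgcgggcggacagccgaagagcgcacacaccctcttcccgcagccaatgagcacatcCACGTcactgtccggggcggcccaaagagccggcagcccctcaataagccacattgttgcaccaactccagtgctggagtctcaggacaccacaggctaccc
Gpi1, chr7:34230287-34230586, minus strand: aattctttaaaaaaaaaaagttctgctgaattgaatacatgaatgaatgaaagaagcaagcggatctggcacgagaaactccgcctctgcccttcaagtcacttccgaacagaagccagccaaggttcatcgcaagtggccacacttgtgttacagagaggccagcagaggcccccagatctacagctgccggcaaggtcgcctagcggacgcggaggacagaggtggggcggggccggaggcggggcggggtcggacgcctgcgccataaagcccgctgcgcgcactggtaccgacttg
Ldha, chr7:46845554-46845853, plus strand: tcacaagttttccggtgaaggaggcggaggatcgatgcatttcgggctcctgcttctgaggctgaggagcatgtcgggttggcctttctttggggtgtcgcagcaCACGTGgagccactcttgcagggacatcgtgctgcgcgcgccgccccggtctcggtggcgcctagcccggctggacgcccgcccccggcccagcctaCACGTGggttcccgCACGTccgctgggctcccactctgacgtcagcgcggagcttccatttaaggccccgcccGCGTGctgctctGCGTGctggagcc
The Hk2 window held 2 ACGTG and no GCGTG, the Gpi1 window neither, and the Ldha window 5 ACGTG and 2 GCGTG, with both strands of its 2 CACGTG counted. Over the 15 annotated promoter windows of the 10 genes, ACGTG stood in 8, from 7 genes, against 19.6% of all 32851 windows of this length and 25.6% of 11979 windows of tested genes. GCGTG stood in 6 windows, from 5 genes, against 32.4% of all windows and 49.8% of those of tested genes. One or the other was found in 11 windows, from 9 genes, against 43.8% and 61.4%. Some windows of 1 gene overlap, and a match is a description, not a site in use.

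Gpi1 (ENSMUSG00000036427.5, chr7:34201330-34230336, minus strand) encodes the isomerase that turns glucose 6-phosphate into fructose 6-phosphate. It had 221 CPM in deficient and 571 CPM in wild-type macrophages with LPS, against 277 CPM in deficient and 272 CPM in wild-type unstimulated macrophages. The 2 unstimulated libraries were level, and those with LPS lay on either side of them. Its fitted LPS change of 0.37 ± 0.35 (log2, SE; adjusted p = 0.449) did not pass, and this value was -0.04 when libraries were scaled by total counts and -0.31 without wild type with LPS. The LPS log2 ratio was -0.33 (-0.37 to -0.28) in deficient and 1.07 (1.03 to 1.10) in wild-type macrophages. Gpi1 alone of the 10 genes was lower with LPS in deficient and higher in wild-type macrophages with both intervals off 0, a pattern of 5.08% of tested genes; with total counts Pkm was too. Of its exonic bases, 741 are shared with the antisense transcript Gm26762, which had 421 to 1103 reads, and the strand setting of the counting is not given in the sources used here.

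Pfkl (ENSMUSG00000020277.10, chr10:77986947-78010083, minus strand) and Pfkp (ENSMUSG00000021196.14, chr13:6579768-6648777, minus strand) encode the liver and platelet forms of phosphofructokinase, the enzyme of the committed step of glycolysis. Pfkl was at 189 CPM in deficient and 396 CPM in wild-type macrophages with LPS, against 63.9 CPM in deficient and 72.7 CPM in wild-type unstimulated macrophages. Pfkp was at 284 CPM in deficient and 523 CPM in wild-type macrophages with LPS, against 140.4 and 153 CPM in deficient and wild-type unstimulated macrophages. The libraries with LPS were above the unstimulated ones for both, an order not counted over all tested genes. The wild-type library was the higher of the LPS pair for both. Pfkl rose by 2.003 ± 0.26 (log2, SE; adjusted p = 0.00242) and Pfkp by 1.39 ± 0.24 (adjusted p = 0.00714). The LPS ratio was 2.95-fold in deficient and 5.44-fold in wild-type macrophages for Pfkl, and 2.02-fold in deficient and 3.41-fold in wild-type macrophages for Pfkp. Pfkp shares 748 exonic bases with Pitrm1 on the other strand, which had between 1158 and 2037 reads, against 5500 to 17305 for Pfkp.

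Aldoa (ENSMUSG00000030695.15, chr7:126795234-126800751, minus strand) encodes the aldolase that cleaves fructose 1,6-bisphosphate. Its level was 1129.5 CPM in deficient and 1624 CPM in wild-type macrophages with LPS, against 813 CPM in deficient and 950.3 CPM in wild-type unstimulated macrophages. Both libraries with LPS were above both unstimulated ones (an order not counted over all tested genes), by less than for the hexokinases. The fitted LPS change, 0.62 ± 0.21 (log2, SE; adjusted p = 0.0615), did not pass edgeR's test. Aldoa had the smallest gap between deficient and wild-type LPS effects, a log2 difference of -0.30 (-0.33 to -0.27).

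Pgk1 (ENSMUSG00000062070.12, chrX:106187100-106203699, plus strand) encodes phosphoglycerate kinase, the first enzyme of the pathway to return ATP. It reached 478 CPM in deficient and 1318 CPM in wild-type macrophages with LPS, against 265 CPM in deficient and 331 CPM in wild-type unstimulated macrophages. The wild-type library with LPS was well above the other 3. Pgk1 rose with LPS by 1.42 ± 0.31 (log2, SE; adjusted p = 0.0153; not called with LPS alone in the model), and by 1.81-fold in deficient and 3.98-fold in wild-type macrophages taken alone. It is the only X-linked gene of the 10, and the sex of the libraries follows the genotype. Reads of the near-identical copies Pgk1-rs7 and Gm5537 came to between 7.03% and 7.98% of the Pgk1 count in each library, and adding them left the genotype ratio with LPS at -1.47 (log2), against -1.46 without.

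Pkm (ENSMUSG00000032294.17, chr9:59656368-59679375, plus strand) encodes the pyruvate kinase of most tissues, whose 2 splice forms, PKM1 and PKM2, are not separated by counts per gene. It was at 1555 CPM in deficient and 2737 CPM in wild-type macrophages with LPS, against 1369.7 CPM in deficient and 1700.05 CPM in wild-type unstimulated macrophages. The deficient library with LPS thus lay under the unstimulated wild-type one. Its fitted LPS change of 0.44 ± 0.22 (log2, SE; adjusted p = 0.187) did not pass. The LPS log2 ratio was 0.18 in deficient and 0.69 in wild-type macrophages, and the ratio in deficient macrophages was -0.19 when libraries were scaled by total counts. Pkm shares 767 exonic bases with Gm49759, an unverified transcript on its own strand, and adding the reads of that entry gave ratios of 0.23 in deficient and 0.77 in wild-type macrophages.

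Ldha (ENSMUSG00000063229.15, chr7:46841475-46855627, plus strand) encodes the lactate dehydrogenase subunit that favours lactate formation. It stood at 750.1 CPM in deficient and 1657 CPM in wild-type macrophages with LPS, against 473 CPM in deficient and 577 CPM in wild-type unstimulated macrophages. The wild-type library with LPS was again above the rest. Ldha rose with LPS by 1.09 ± 0.27 (log2, SE; adjusted p = 0.0225), a call that was also lost with LPS alone in the model, with scaling by total counts, and with any library left out but deficient with LPS. Its LPS ratio was 1.59-fold in deficient and 2.87-fold in wild-type macrophages.

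With LPS, all 10 genes were lower in deficient than in wild-type macrophages, as were 47.8% of tested genes. The log2 ratio of deficient over wild type was -1.96 for Slc2a1, -1.59 for Hk2, -1.46 for Pgk1, -1.37 for Gpi1, -1.14 for Ldha, -1.07 for both Hk1 and Pfkl, -0.88 for Pfkp, -0.82 for Pkm and -0.52 for Aldoa. For the first 7 of these the whole counting interval lay beyond 2-fold lower, against 3.04% of tested genes; scaling by total counts left 5, without Hk1 and Pfkl. None was beyond 2-fold higher, against 2.58% of tested genes. The median ratio was -1.11 over the 10 genes and 0.02 over all tested genes. Among tested genes, 1.59% had a lower ratio than Slc2a1 and 13.5% a lower one than Aldoa. All these ratios rest on the single wild-type library with LPS.

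Without LPS the same comparison gave small ratios. Lower in deficient macrophages were 8 of the 10 genes, against 6369 of the 12730 tested genes. That count of the 10 was 9 with DESeq2's size factors and 7 with a share of the wild-type LPS profile taken off. The median log2 ratio was -0.21, against 0.00 over all tested genes. No gene was beyond 2-fold lower or higher, against 1.41% and 2.82% of tested genes. Hk1 had the lowest ratio, -0.52 (-0.59 to -0.45), followed by Pgk1 at -0.32 (-0.36 to -0.29) and Pkm at -0.31 (-0.33 to -0.30). Slc2a1 was higher in deficient macrophages, at 0.18 (0.12 to 0.23), and the Gpi1 interval, -0.01 to 0.06, held 0.

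Fitted over both conditions, the genotype effect was below 0 for all 10 genes, between -0.89 ± 0.31 for Pgk1 and -0.37 ± 0.21 for Aldoa (log2, SE). The median fitted value was -0.69 over the 10 genes and 0.02 over all tested genes. None was called by edgeR (adjusted p from 0.343 for Hk1 to 0.831 for Slc2a1), against 0.385% of tested genes called higher and 0.165% called lower. At an unadjusted p under 0.05 there were 6 of the 10 and 968 of the 12730 tested genes, and DESeq2's Wald test called 1, Hk1 (-0.82, adjusted p = 0.0440). In a model with genotype alone and without wild type with LPS, 8 of the 10 fitted values were above 0, among them Hk2 at 1.09 and Slc2a1 at 0.89. The model counts as spread the change of the genotype ratio with LPS. That ratio was lower with LPS than without for all 10 genes, and for 6394 of the 12730 tested genes.

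**Figure D2:**
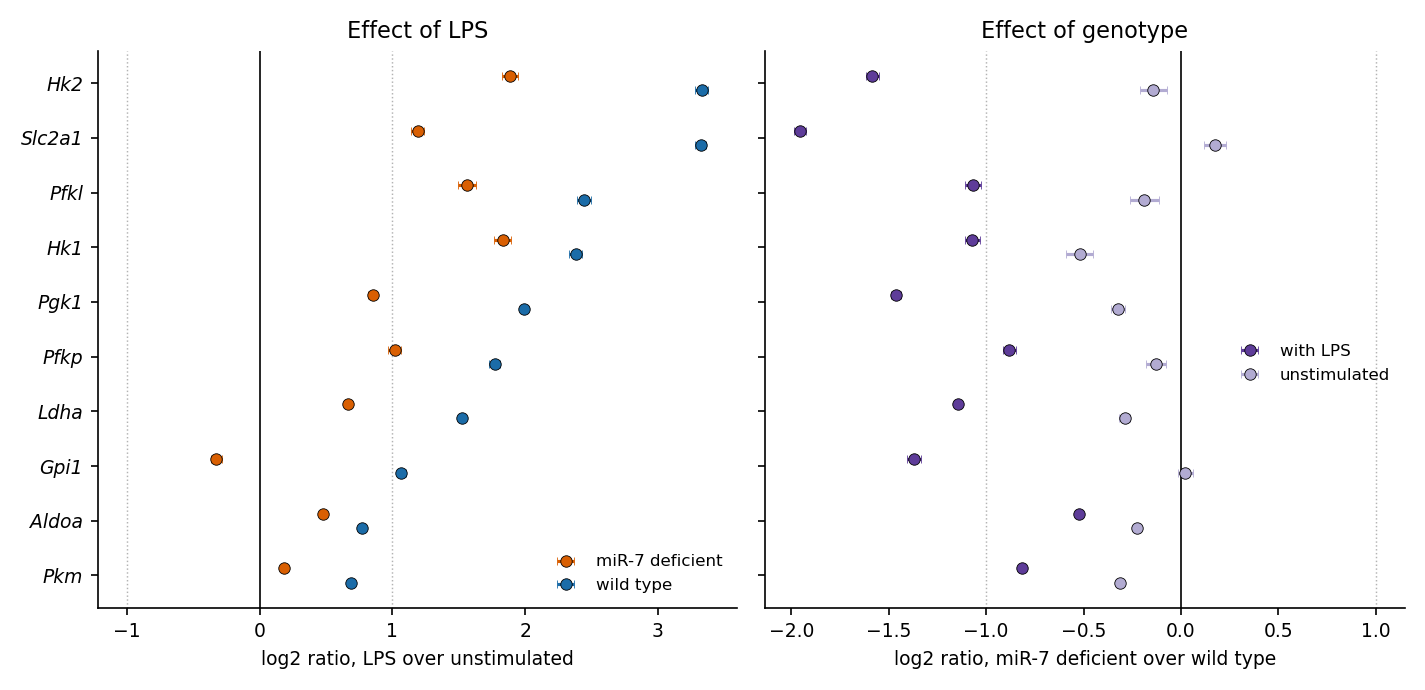
Log2 ratios between single libraries with exact 95% intervals for counting error, genes ordered by their LPS ratio in wild type; left, LPS over unstimulated in deficient (orange) and wild-type (blue) macrophages; right, deficient over wild type with LPS (dark) and unstimulated (pale). In every row the deficient LPS ratio lies left of the wild-type one, from 1.19 against 3.32 for Slc2a1 to 0.47 against 0.77 for Aldoa, and only Gpi1 has a ratio below 0 on the left (with total counts, Pkm as well).

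The LPS ratio was smaller in deficient than in wild-type macrophages for all 10 genes, and for 6394 of the 12730 tested genes. Its interval lay wholly beyond 2-fold higher for 4 genes in deficient macrophages (Slc2a1, Hk1, Hk2 and Pfkl), against 12.5% of tested genes. In wild-type macrophages it did so for 8 (all but Aldoa and Pkm), against 14.8%. No gene was beyond 2-fold lower, against 11.8% of tested genes in deficient and 13.3% in wild-type macrophages. The median LPS log2 ratio over the 10 genes was 0.93 in deficient and 1.88 in wild-type macrophages. The difference between the LPS effects was beyond 2-fold for 4 genes, against 3.82% of tested genes: Slc2a1, Hk2 at -1.44 (-1.52 to -1.37), Gpi1 at -1.39 (-1.45 to -1.34) and Pgk1 at -1.14 (-1.19 to -1.10). The other 6 ranged from -0.88 for Pfkl to -0.30 for Aldoa. With no replicate this difference has no test, and the 4 ratios of a gene share libraries. Taking 1.33% of the wild-type LPS profile off the unstimulated wild-type library left the same 4 genes. That step raises the wild-type LPS ratio of genes higher with LPS, so it could not have removed any of them. The Slc2a1 difference went to -2.31.

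Summed over the 10 genes, the level was 5402 CPM in deficient and 11261 CPM in wild-type macrophages with LPS, against 3668 CPM in deficient and 4345 CPM in wild-type unstimulated macrophages. The sum with LPS was thus 1.47 times the unstimulated one in deficient and 2.59 times in wild-type macrophages. Taken as a part of all reads in genes, before TMM scaling, the 10 genes made up 0.480% in deficient and 0.951% in wild-type macrophages with LPS, against 0.423% and 0.498% in deficient and wild-type unstimulated macrophages. Only the wild-type library with LPS stood apart.

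Levels between genes were compared as CPM per kilobase of exon. In wild-type macrophages with LPS, Pgk1 led with 587 CPM per kb, followed by Aldoa with 558, Pkm with 547 and Ldha with 500.5 CPM per kb, all with intervals for counting error that did not overlap. In deficient macrophages with LPS the order was Aldoa with 388, Pkm with 311, Ldha with 227 and Pgk1 with 213 CPM per kb. Pgk1 was thus first in the wild-type library with LPS and behind these enzymes in the other 3. Slc2a1 held the fifth place in both libraries with LPS, at 83.4 CPM per kb in deficient and 324 CPM per kb in wild type, and the sixth place behind Gpi1 in both unstimulated ones. The lowest 3 per kilobase of exon were Hk1, Pfkl and Pfkp in every library, and their order is not secure. The intervals of Hk1 and Pfkl overlapped in deficient with LPS (27.1 and 28.3 CPM per kb). They also did in wild type unstimulated (10.9 CPM per kb each), where that of Pfkp overlapped both. Per length of the longest transcript, Pkm led in wild type with LPS at 1125 CPM per kb and Pgk1 stood behind Aldoa and Ldha at 722 CPM per kb. By that length Hk2 was the lowest gene in both unstimulated libraries and lay under Hk1 in deficient with LPS.

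The make-up of the enzyme families moved with LPS as well. Hk3, a hexokinase of blood cells, took most of the summed hexokinase CPM per kb: 80.9% in deficient and 61.0% in wild-type macrophages with LPS, against 83.7% in deficient and 85.2% in wild-type unstimulated macrophages. Hk2 took 12.0% in deficient and 27.5% in wild-type macrophages with LPS, against 10.1% and 8.19% in deficient and wild-type unstimulated macrophages. Hk3 itself had 1131 CPM in deficient and 1118 CPM in wild-type macrophages with LPS, a genotype log2 ratio of 0.02.

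Among phosphofructokinases, Pfkl took 54.7% of the summed CPM per kb in deficient and 59.2% in wild-type macrophages with LPS, against 43.7% in deficient and 43.6% in wild-type unstimulated macrophages, and Pfkm never exceeded 10.6%. Ldha took 97.8% of lactate dehydrogenase in deficient and 99.4% in wild-type macrophages with LPS, against 83.6% and 87.1% in deficient and wild-type unstimulated macrophages; its partner Ldhb fell with LPS. Of 4 glucose carriers, Slc2a1 took 21.2% in deficient and 55.2% in wild-type macrophages with LPS, against 43.1% and 46.3% in deficient and wild-type unstimulated macrophages. The rest was mostly Slc2a6, a carrier of the lysosome, with 78.4% in deficient and 44.4% in wild-type macrophages with LPS. Shares are descriptions of single libraries.

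**Figure D3:**
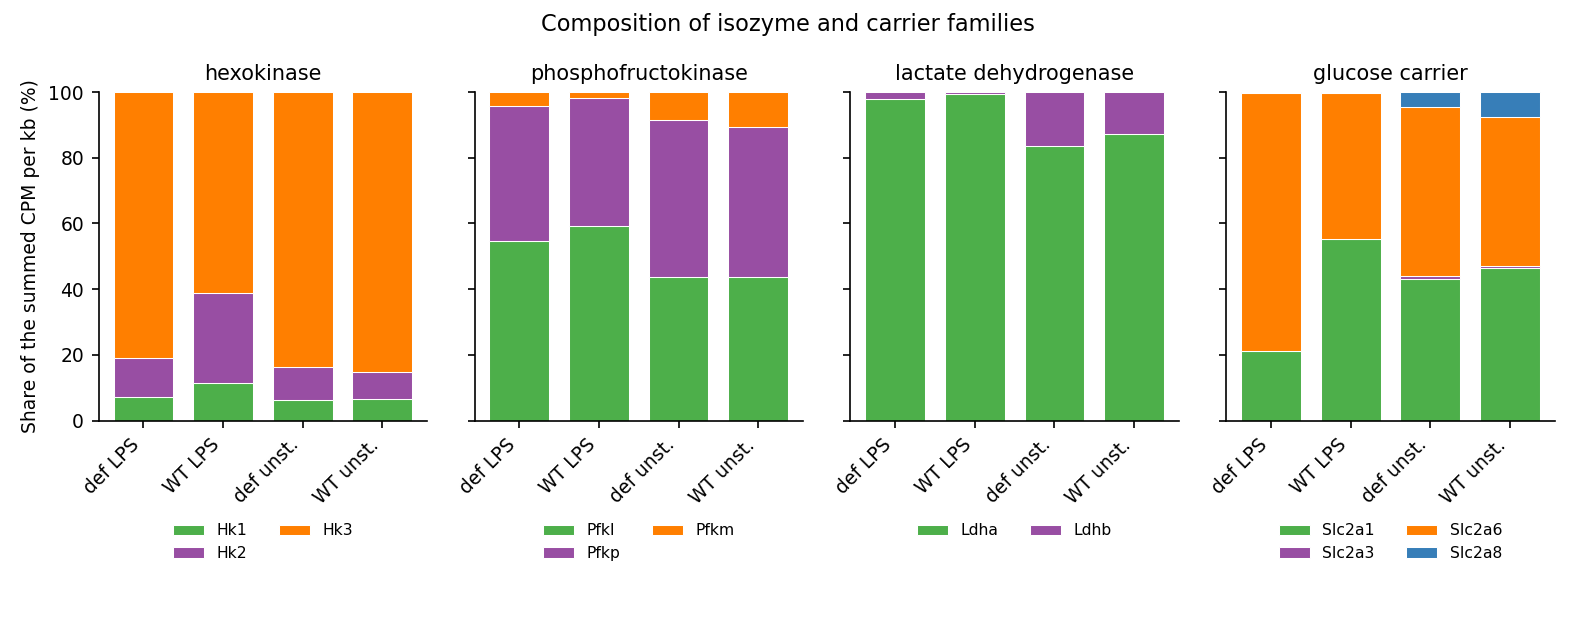
Share (%) of each family's summed CPM per kb held by each gene in the 4 libraries (def, miR-7 deficient; WT, wild type; unst., unstimulated). The wild-type bar with LPS shows the widest Hk2 band, 27.5%, and the deficient bar with LPS the widest Slc2a6 band, 78.4%.

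Of 21 other enzymes of the pathway listed, 14 passed the filter on low counts. Of these, 4 rose with LPS, 2 fell and 8 did not pass, against 18.0% of tested genes called higher and 16.3% called lower. Those that rose were Hk3 (1.34 ± 0.22; log2, SE; adjusted p = 0.00568), Tpi1 (1.34 ± 0.39; 0.0425), Gapdh (1.15 ± 0.24; 0.0137) and Eno1 (1.08 ± 0.27; 0.0240). Tpi1, triose phosphate isomerase, had 237 CPM in deficient and 788 CPM in wild-type macrophages with LPS, against 165 CPM in deficient and 178 CPM in wild-type unstimulated macrophages. Gapdh had 630.03 CPM and Eno1, an enolase, 802 CPM in deficient macrophages with LPS, against 1291 CPM and 1680.3 CPM in wild type with LPS. Pgam1, a phosphoglycerate mutase, was at 731 CPM in deficient and 1364 CPM in wild-type macrophages with LPS and did not pass (0.74 ± 0.23; adjusted p = 0.0501). Aldoc fell (log2 fold change -1.58) and so did Ldhb (-2.75), and Pfkm, at 6.01 to 8.86 CPM, did not pass. Tpi1, Gapdh and Eno1 were the 3 of the 14 that were beyond 2-fold lower in deficient than in wild-type macrophages with LPS. Of all tested genes, 3.04% were so. Gapdh and Eno1 have retroposed copies, between which reads could have been split.

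Of 8 other carriers of glucose and lactate that passed the filter, 2 rose, 2 fell and 4 did not pass. Over all tested genes, 18.0% were called higher and 16.3% lower. Slc16a3, the lactate exporter MCT4, stood at 214 CPM in deficient and 715 CPM in wild-type macrophages with LPS, against 86.3 CPM in deficient and 93.7 CPM in wild-type unstimulated macrophages, and rose by 2.12 ± 0.40 (log2, SE; edgeR, adjusted p = 0.00922). Slc2a6 rose by 2.93 ± 0.21 (adjusted p = 0.000327) and, unlike Slc2a1, was not lower in deficient macrophages with LPS, with 989.6 CPM against 836 CPM in wild type. Slc2a3 was low, at 2.51 CPM in deficient and 4.95 CPM in wild-type macrophages with LPS, and did not pass. The monocarboxylate carrier Slc16a7 fell by 2.62 on the log2 scale, and Slc2a8 fell by 1.62.

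Among 16 tested regulators of glycolysis and of the fate of pyruvate, 2 rose, 7 fell and 7 did not pass. The shares over all tested genes were 18.0% called higher and 16.3% called lower. Pfkfb3, which makes the activator of phosphofructokinase fructose 2,6-bisphosphate, had 176 CPM in deficient and 500.2 CPM in wild-type macrophages with LPS, against 35.6 CPM in deficient and 58.6 CPM in wild-type unstimulated macrophages, and rose by 2.70 ± 0.26 (log2, SE; adjusted p = 0.000764). Txnip, a protein that holds back glucose uptake, fell by 2.004 on the log2 scale (SE 0.40; adjusted p = 0.0113), with 136 CPM in deficient and 67.5 CPM in wild-type macrophages with LPS, against 309 CPM in deficient and 478 CPM in wild-type unstimulated macrophages. With LPS Txnip was the higher in deficient and Pfkfb3 the lower.

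Routes that branch from glycolysis were followed too. Of all tested genes, 18.0% were called higher with LPS and 16.3% lower. Beyond 2-fold lower in deficient than in wild-type macrophages with LPS were 3.04%. In the pentose phosphate pathway, which draws on glucose 6-phosphate, 3 of 9 genes rose (G6pdx, Pgd and Rpe), none fell, and the median genotype log2 ratio with LPS was 0.06. Pgd stood at 1761 CPM in deficient and 1758 CPM in wild-type macrophages with LPS, against 896 CPM in deficient and 867 CPM in wild-type unstimulated macrophages. Tkt and Shpk did not pass. In glycogen metabolism 3 of 10 tested genes rose, 3 fell and 4 did not pass, and 6 of the 10 were beyond 2-fold lower in deficient than in wild-type macrophages with LPS. Glycogen synthase Gys1 had 33.3 CPM in deficient and 258 CPM in wild-type macrophages with LPS, and phosphoglucomutase Pgm1 136 CPM in deficient and 349 CPM in wild type with LPS; both rose, while Ugp2 did not pass. Of 4 tested genes of gluconeogenesis, Pcx rose, G6pc3 and Pck2 fell and 1 did not pass.

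HIF factors and hypoxia-induced genes outside glycolysis formed another list. Of its 22 genes, 12 rose with LPS, 1 fell and 9 did not pass. Of all tested genes, 18.0% were called higher with LPS and 16.3% lower. Beyond 2-fold lower in deficient than in wild-type macrophages with LPS were 15 genes of the list, against 3.04% of tested genes. Its median genotype log2 ratio was -1.95 with LPS and -0.01 unstimulated. Its summed level was 1312 CPM in deficient and 4058 CPM in wild-type macrophages with LPS, against 880 CPM in deficient and 862 CPM in wild-type unstimulated macrophages. Hif1a, the inducible subunit of HIF-1, did not share this pattern: it rose with LPS by 1.72 ± 0.20 (log2, SE; adjusted p = 0.00159) and had 337 CPM in deficient and 309 CPM in wild-type macrophages with LPS, against 116 CPM in deficient and 81.8 CPM in wild-type unstimulated macrophages. Ero1l, an oxidase of the endoplasmic reticulum, had 138 CPM in deficient and 1304 CPM in wild type with LPS, and the collagen prolyl hydroxylase gene P4ha1 246 CPM in deficient and 507 CPM in wild type with LPS. Both rose, and so did the peptide hormone gene Adm, at 1.68 CPM in deficient and 33.2 CPM in wild type with LPS and the only gene of these pathway lists that edgeR called for genotype (adjusted p = 0.0213). Epas1, which encodes HIF-2α, fell to 1.02 CPM in deficient and 0.272 CPM in wild-type macrophages with LPS, against 23.8 CPM in deficient and 21.05 CPM in wild-type unstimulated macrophages.

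**Figure D4:**
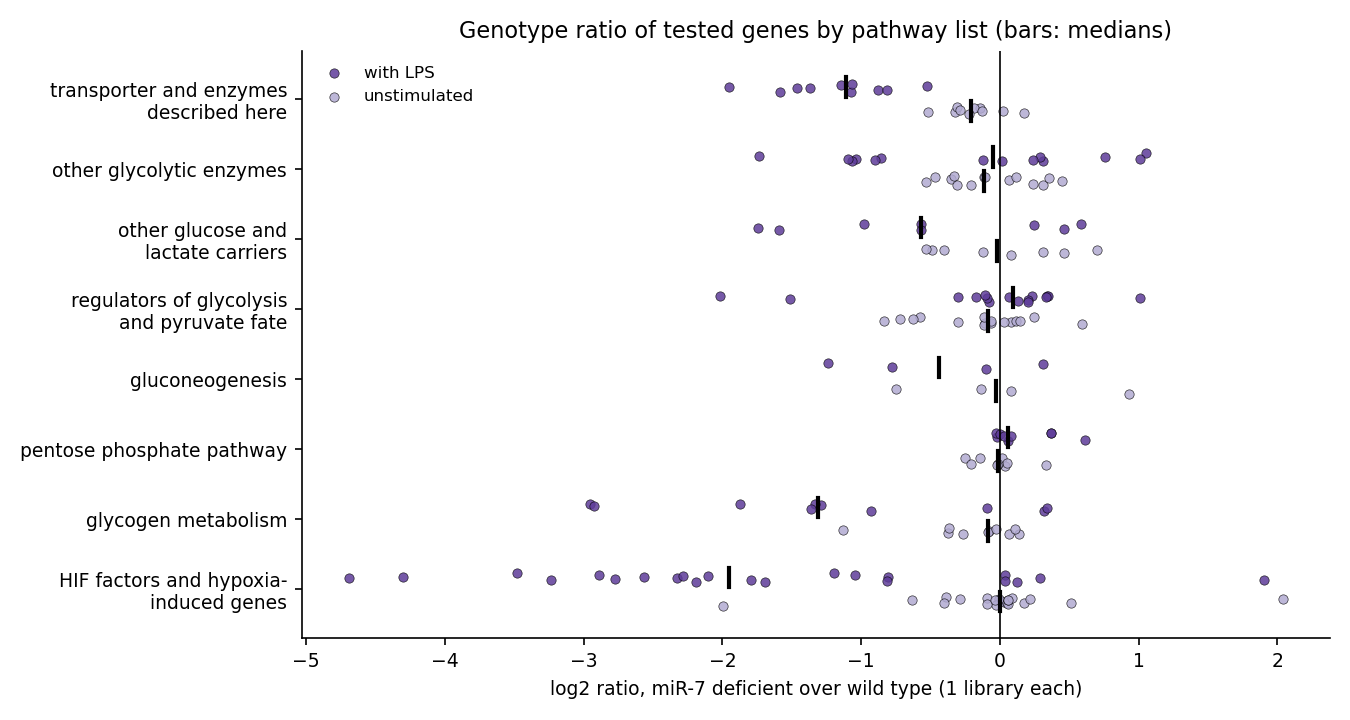
Log2 ratio of miR-7 deficient over wild-type macrophages for each tested gene of the 8 lists, with LPS (dark) and unstimulated (pale), 1 point a gene and a bar at the median. With LPS the medians lie at -1.11 for the transporter and enzymes described here, -1.95 for the HIF list and 0.06 for the pentose phosphate pathway; unstimulated, that of the 10 genes lies at -0.21.

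Within the 10 genes, patterns over the 4 libraries were compared as the distance between log2(CPM + 1) values centred on their mean. Hk1 and Pfkl were each other's nearest neighbours, at 0.26, as were Aldoa and Pkm, at 0.29, and Slc2a1 and Hk2, at 0.49. Pgk1 (0.22) and Pfkp (0.23) lay closest to the mean pattern of the 10 genes, and Hk2 (1.20) and Gpi1 (1.07) farthest. Of 7865 other protein-coding genes with a mean of at least 10 CPM, those nearest to that mean pattern were Ppme1 (0.06), Gtf2e2 (0.14), Jmjd6 (0.15), Furin (0.19) and Prag1 (0.22). Furin, for one, had 281 CPM in deficient and 540.4 CPM in wild-type macrophages with LPS, against 134 CPM in deficient and 146 CPM in wild-type unstimulated macrophages. A distance over 4 libraries is a description of these libraries.

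Levels of other markers moved beside these results, and their part in them was not tested. The macrophage list summed to 15175 CPM in deficient and 13416 CPM in wild-type macrophages with LPS, against 22769 CPM in deficient and 22193 CPM in wild-type unstimulated macrophages. Most of this sum was Lyz2, at 10328 CPM in deficient and 8678 CPM in wild-type macrophages with LPS, against 18626 CPM in deficient and 17700 CPM in wild-type unstimulated macrophages. Of the 8 macrophage markers Adgre1, Fcgr1 and Cd14 rose with LPS, Lyz2 fell and 4 did not pass. Over all tested genes, 18.0% were called higher and 16.3% lower. Unstimulated, 2 of the 8 were beyond 2-fold lower in deficient than in wild-type macrophages, against 1.41% of tested genes, and 0 were beyond 2-fold higher. These were Itgam, at 291 CPM in deficient and 967 CPM in wild type, and Fcgr1, at 23.8 CPM in deficient and 52.7 CPM in wild type. With LPS 0 of the 8 were beyond 2-fold lower or higher, against 3.04% and 2.58% of tested genes. The mast cell and basophil list was at 0.642 CPM in deficient and 7.37 CPM in wild-type macrophages with LPS, with 4 of its 5 genes at 0 reads in every library. The erythroid list was at 0.107 CPM in deficient and 2.39 CPM in wild type with LPS.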

How the data were processed

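The deposited files hold raw counts of reads per gene, 1 table a library, which the authors obtained from HiSeq 2000 reads trimmed with Cutadapt and aligned with TopHat v2.0.13 (Bowtie2), per the series' design text. The submitters' processing notes name HTSeq for counting and the build mm8. The sources used here name neither strand setting nor annotation release. Gene names and coordinates were taken from GENCODE M21 (GRCm38), matched on the identifier without version for 52403 of 52550 identifiers (99.7%). Promoter and mature miR-7 sequences came from RefSeq (GRCm38.p6), and 3′ UTR and other transcript sequences from GENCODE M21.

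From the deposited counts, genes with at least 1 CPM in 2 or more libraries (12730) were tested with edgeR 4.0.16 in R 4.3.3: TMM scaling, an additive model of genotype and LPS with 1 residual degree of freedom, the quasi-likelihood test, and Benjamini-Hochberg adjustment with a threshold of 0.05. The SE was derived from the fitted log2 value and its F statistic (value over root F). Ratios between single libraries have exact Clopper-Pearson 95% intervals, and the difference of LPS effects a normal 95% interval with 0.5 counts added. "Beyond 2-fold" means that the whole interval was. All intervals cover counting error only. Code for the tests was tested on simulated data. Libraries held 33937823 to 42074624 reads in genes. Each group is 1 library, so p-values measure only the spread left by the additive model.

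Named genes were the 10 described, 12 others given in full, and from each list the 2 of highest mean CPM and the 2 of largest fitted LPS change. Slc2a8, G6pdx and Rpe were named after their values were seen. Genes and lists were chosen with earlier results of these data known. Alternatives tried were DESeq2's size factors, scaling by total counts, no filter or a filter at 10 CPM, DESeq2 1.42.0, the tested factor alone, each library left out, thinned counts, the wild-type LPS profile taken off, and the longest transcript as gene length. Protein sequences were not used here.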

Additional observations from a re-analysis of the deposited data

Results flagged for a closer look

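Slc2a1 stood out because its genotype ratio pointed in opposite directions with and without LPS. The log2 ratio of deficient over wild-type macrophages was -1.96 with LPS and 0.18 unstimulated. Gpi1 stood out because LPS went with opposite differences in the 2 genotypes: its LPS log2 ratio was -0.33 in deficient and 1.07 in wild-type macrophages. With 1 library a group, neither difference was tested.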

How the results depend on the processing

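The genes that LPS raised numbered 2297 over all tested genes and 1088 to 1744 when 1 library was left out, and those that fell 2075, with 588 to 1464 when 1 library was left out and 3842 with scaling by total counts, which shifts all ratios down. Of the 10 glycolytic genes, 7 were called, 5 with LPS alone in the model, and 0 to 8 when 1 library was also left out of that model. The LPS change of Gpi1 turned to -0.038 with total counts, and with 1 library left out it ran from -0.31 (without wild type with LPS) to 1.06.

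For genotype, 49 genes were called higher: 27 with DESeq2's size factors, 31 with total counts, 18 without a filter, 147 with DESeq2's Wald test, 19 with the LPS profile taken off, and 0 both with genotype alone and when any library was left out. Genes called lower numbered 21: 12 without a filter, 81 with the Wald test, 11 with the profile taken off, and 0 with genotype alone or any library left out. Of the 10 glycolytic genes 0 were called, and 1 with the Wald test. With 1 library left out, the genotype value ran from -2.46 to 0.89 for Slc2a1, -2.15 to 0.67 for Hk1, -2.61 to 1.09 for Hk2, -1.87 to 0.80 for Pfkl, -1.33 to 0.47 for Pfkp, -0.78 to 0.032 for Aldoa, -1.86 to 0.16 for Pgk1 and -1.47 to 0.083 for Ldha, with the highest value of each without wild type with LPS; the model then holds genotype alone, with 1 deficient library with LPS and no wild-type one. For the other changes the cause was not tested. Fits without a library assume that the lone library of an arm varies like the others. No paired analysis was possible because each group has 1 library.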
